A study of Mus musculus with 4 samples.

Results

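The 10 genes described here encode Notch ligands (Dll1, Jag1 and Jag2), Notch receptors (Notch1, Notch2 and Notch3) and Hes and Hey family transcription factors (Hes1, Hes6, Hey1 and Heyl). They were taken by name from the deposited table, keeping each row whose platform annotation gave a single gene symbol equal to a gene of this list. Each of the 10 had exactly 1 such row, a transcript cluster, in which a set of array probes is combined into 1 intensity. Jag2 is also named, together with Pgp, on a further cluster that was not used for it. In all, 14806 genes had a cluster of their own. Total RNA of C2C12 cells, an established line of mouse myoblasts that can be induced to form myotubes, was measured on 4 arrays. The 2 differentiation arrays came from cells switched at 100% confluency to DMEM with 2% horse serum and collected 24 h later. The 2 growth arrays came from cells in DMEM with 10% fetal bovine serum, collected at 60 to 70% confluency. The labels name no genetic change in either group. Each group thus had its own serum type, serum amount and cell density, and none of these can be told apart from differentiation.

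Notch signalling runs between touching cells. A ligand of the Delta or Jagged family on a cell binds a Notch receptor on its neighbour, the receptor is cut by an ADAM protease and then by gamma-secretase, and the freed intracellular domain joins Rbpj and a Mastermind protein in the nucleus. Hes and Hey genes, which encode basic helix-loop-helix repressors, are the best known targets. In skeletal muscle the pathway is known for keeping muscle progenitors and satellite cells undifferentiated, and constitutively active Notch blocks the differentiation of cultured myoblasts.

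Of the 10 genes, 4 rose at 24 h of differentiation and none fell. They were the ligand gene Dll1, the receptor gene Notch3 and the family members Heyl and Hes6, with mean intensities 8.60, 2.83, 4.44 and 2.27 times those of the growth arrays. Over all 16658 clusters, 8.64% were called higher and 7.52% lower (limma with Benjamini-Hochberg adjustment over all clusters, threshold 0.05). These shares are not matched to the 10 genes in intensity. All 10 lay above the median cluster in mean intensity over the 4 arrays, the lowest at percentile 53.8. On the growth arrays, Dll1 (68.2 and 60.9) and Heyl (99.3 and 117) lay below the array medians (167.8 and 177.2). These genes thus cleared the median through their differentiation arrays. With the clusters of below-median intensity left out, 6 of the 10 rose. Of the 8329 clusters that remained, 3614 were then called in either direction. No share called higher was computed for them, so the 6 of 10 has no matched share beside it. The intensity ranges of the groups were disjoint for 9 of the 10 genes, and so were those of 60.8% of all clusters. The median change of the 10 genes was 0.62, against -0.01 over all clusters. Throughout, a change is differentiation minus growth in log2(intensity + 16), given with its limma standard error (SE), and intensities are linear values. The offset of 16 makes changes of dim genes smaller than the ratio of their intensities.

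**Figure D1:**
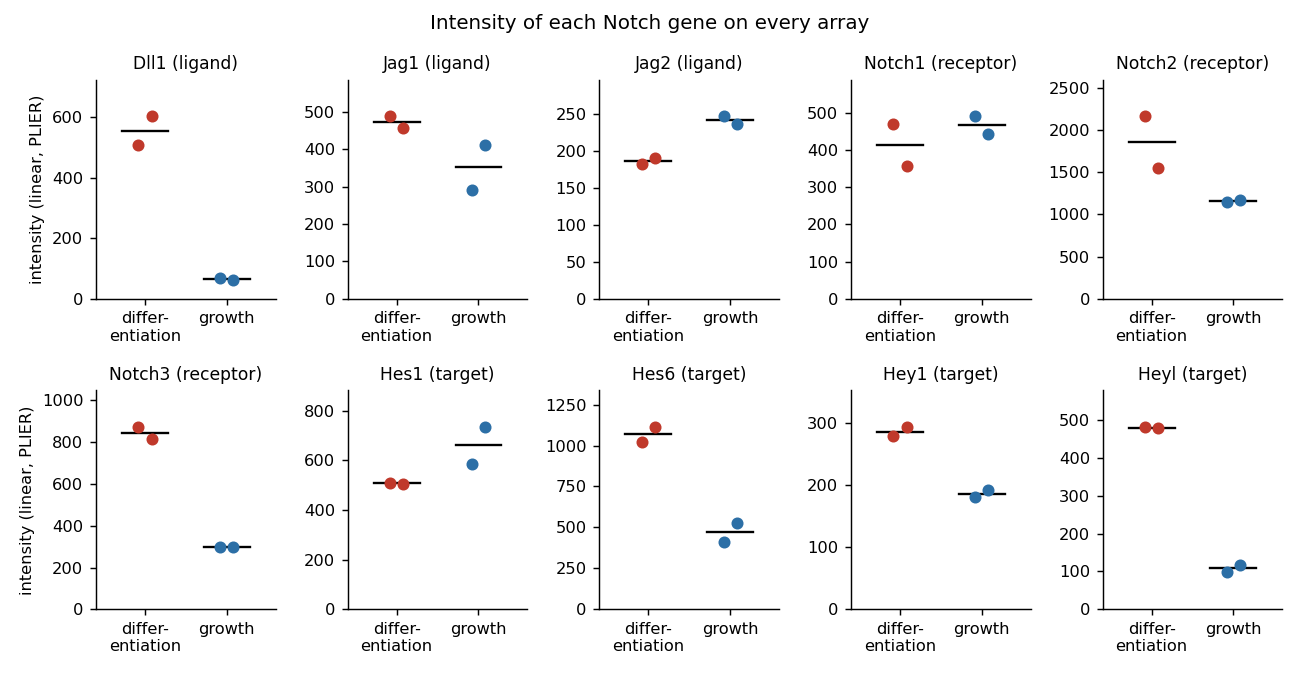
Linear intensity (vertical axis, from 0, with its own range in each panel) of the 10 genes on the 2 differentiation arrays (red, left) and the 2 growth arrays (blue, right); points are arrays and black lines are means. The groups lie far apart for Dll1, Notch3, Hes6 and Heyl, and Notch1 is the only gene whose groups overlap.

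The groups differed in the direction their labels give. The differentiation genes Myog (1.38 ± 0.18 SE), Mymk (1.29 ± 0.20) and Ckm (1.16 ± 0.18) rose, as did the determination gene Myod1 (0.89 ± 0.18). The proliferation gene Mki67 fell (-2.28 ± 0.24). Of 8 measured early differentiation genes 7 rose, beside 8.64% of all clusters, and Tnnt2 did not (0.0044 ± 0.19). Myog was at 647 and 701 on the growth arrays, above the array medians of 167.8 and 177.2. Des, the muscle intermediate filament gene, was bright in both groups, at 3378 and 3253 on the differentiation arrays and 2386 and 2318 on the growth arrays. Log2 values correlated at 0.986 between the differentiation arrays, 0.984 between the growth arrays and 0.939 to 0.951 between arrays of different groups. That correlation runs across clusters, which are not independent replicates. The series calls the arrays of a group biological replicates without describing the cultures. The p-values and SEs rest on the spread between these arrays, which limma draws toward a value shared by all clusters. With 2 arrays a group, their number limits the precision of every value. In bulk RNA, fewer cells that express a gene and less RNA per cell cannot be told apart.

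Dll1 encodes a Delta-type ligand that mouse embryos need to maintain muscle progenitors. Its intensity was 507 and 604 on the differentiation arrays, against 68.2 and 60.9 on the growth arrays. Both growth values lay below the median intensity of their array (167.8 and 177.2), and both differentiation values lay above theirs (174.1 and 170.0). Dll1 rose by 2.82 ± 0.19 (adjusted p = 0.000165), and 7 of the 16658 clusters had a larger rise. The gap between the lowest differentiation array and the highest growth array was 2.64 in log2(intensity + 16), against 0.24 between the differentiation arrays and 0.13 between the growth arrays.

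The Jagged ligand genes did not pass. Jag1 had intensities of 488 and 457 on the differentiation arrays and 292 and 410 on the growth arrays, with a change of 0.43 ± 0.21 (95% interval -0.06 to 0.92, adjusted p = 0.200). The growth arrays stood 0.47 apart in log2(intensity + 16), which exceeds the gap of 0.15 between the groups. Jag2 had intensities of 183 and 190 on the differentiation arrays and 247 and 237 on the growth arrays, with a change of -0.35 ± 0.18 (-0.76 to 0.06, adjusted p = 0.212). Its groups did not overlap, with differentiation the lower. The change of Dll1 exceeded that of Jag1 by 2.39 and that of Jag2 by 3.17.

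Of the receptor genes, Notch3 alone passed the threshold. Notch3 encodes a receptor found on satellite cells, and it is best known from the mural cells of blood vessels. Its intensity was 872 and 816 on the differentiation arrays, against 299 and 297 on the growth arrays, and its log2 value rose by 1.45 ± 0.18 (adjusted p = 0.00166). The groups were 1.40 apart in log2(intensity + 16), and the arrays of a group differed by at most 0.09. Of 7 measured smooth muscle and mural cell markers, 3 (Cnn1, Tagln and Cspg4) fell and none rose, beside 7.52% and 8.64% of all clusters. The brightest of them, Acta2, had a change of -0.0027 ± 0.20. The summed intensity of these markers was 13123 to 14038 on the differentiation arrays and 16030 to 18764 on the growth arrays. Their part in the change of Notch3 was not tested.

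Notch1 and Notch2, the receptors most studied in satellite cells, did not pass. Notch1 had intensities of 469 and 357 on the differentiation arrays and 491 and 444 on the growth arrays, so the groups overlapped. Its change was -0.18 ± 0.20 (95% interval -0.65 to 0.29, adjusted p = 0.560), and it was -0.37 without differentiation replicate 1 and 0.0076 without differentiation replicate 2. Notch2 had intensities of 2166 and 1554 on the differentiation arrays, which lay further apart than the 1147 and 1174 of the growth arrays. Both differentiation arrays lay above both growth arrays, and the change was 0.65 ± 0.21 (0.16 to 1.14, adjusted p = 0.0736). It was 0.42 without differentiation replicate 1 and 0.89 without differentiation replicate 2. Notch2 passed under 4 of 15 alternative settings, among them an offset of 64 (adjusted p = 0.0209) and an intensity trend in the variance prior (adjusted p = 0.000833). The change of Notch3 exceeded that of Notch1 by 1.64 and that of Notch2 by 0.80.

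**Figure D2:**
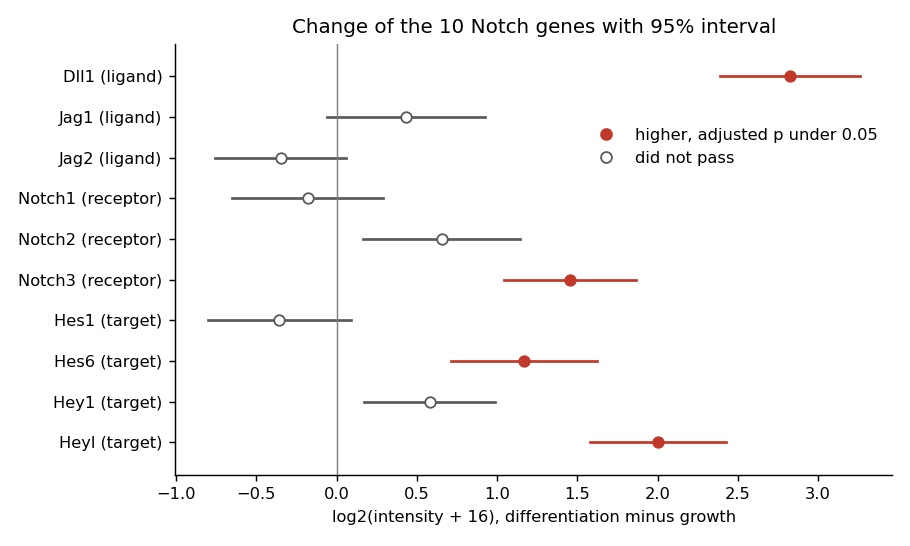
Change of each gene (horizontal axis, differentiation minus growth in log2(intensity + 16)) with its 95% interval from limma, ordered by role. Filled points (Dll1, Notch3, Hes6 and Heyl) passed an adjusted p of 0.05, and the intervals of Notch2 and Hey1 also lie above 0 although they missed the adjusted threshold.

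Heyl, which encodes a Hey family repressor and is a Notch target in satellite cells, had intensities of 481 and 478 on the differentiation arrays, against 99.3 and 117 on the growth arrays. It rose by 2.00 ± 0.18 (adjusted p = 0.000393), and 41 clusters had a larger rise. The differentiation arrays differed by 0.0090 in log2(intensity + 16) and the growth arrays by 0.21, with 1.89 between the groups. Hey1, its relative, had intensities of 278 and 293 on the differentiation arrays and 181 and 192 on the growth arrays. The arrays of each group lay close together, with 0.50 between the groups. Its change of 0.58 ± 0.18 (95% interval 0.17 to 0.99) missed the threshold (adjusted p = 0.0626). Hey1 passed under the same number of alternatives as Notch2, 4 of 15.

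Hes6 encodes a Hes family member known to oppose Hes1 and to promote rather than block differentiation, and unlike Hes1 it is not a direct target of activated Notch. Its intensity was 1022 and 1113 on the differentiation arrays, against 414 and 526 on the growth arrays. Hes6 rose by 1.16 ± 0.20 (adjusted p = 0.00710). This call was lost without differentiation replicate 1 (adjusted p = 0.0598), without differentiation replicate 2 (0.0787) and against a minimum change of 1.5-fold (0.184). Hes1, the classical Notch target, had intensities of 510 and 506 on the differentiation arrays and 585 and 734 on the growth arrays. Its groups did not overlap, with differentiation the lower, and the change of -0.36 ± 0.19 (95% interval -0.80 to 0.09) did not pass (adjusted p = 0.236). The spread of the growth arrays of Hes1, 0.32 in log2(intensity + 16), was larger than the gap to the differentiation arrays (-0.19).

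Among the Hes and Hey genes, the change of Heyl exceeded that of Hes1 by 2.36, that of Hey1 by 1.42 and that of Hes6 by 0.84, and Hes6 exceeded Hes1 by 1.52. In all, 8 pairs of genes of the same role were compared. In each of them the differences between the genes did not overlap between the 2 groups of arrays. Every pair held a gene already past the threshold, so this separation follows in part from the choice of pairs. The share of such pairs among all clusters was not computed. A two-sided exact permutation test over the arrays gave p = 0.333 for each of the 8, and 0.333 after Benjamini-Hochberg adjustment, which is the smallest p that 2 arrays against 2 allow. The permutation test therefore cannot reach the threshold here, and the differences were tested in no other way.

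**Figure D3:**
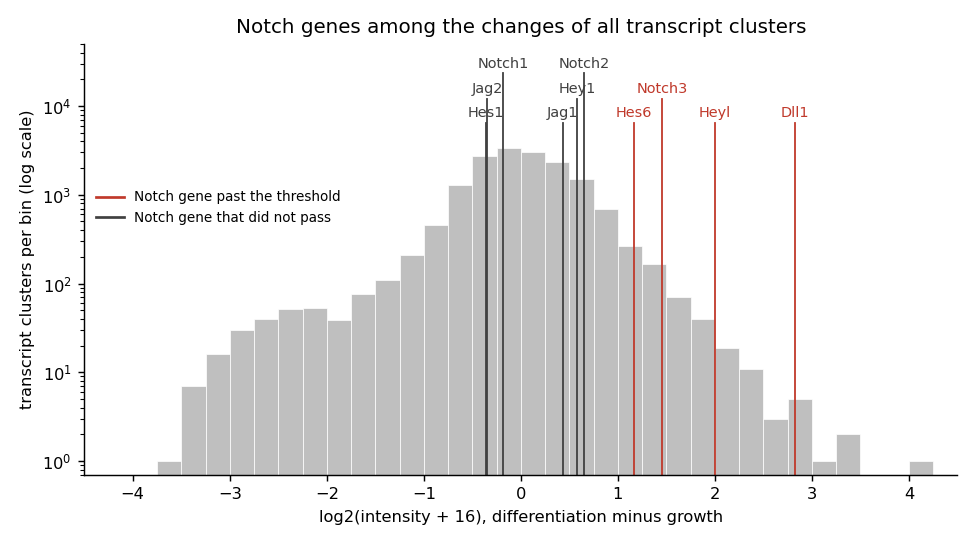
Number of transcript clusters (vertical axis, log scale) in bins of the change (horizontal axis, differentiation minus growth in log2(intensity + 16)), with the 10 genes marked as lines (red, past the threshold; black, not). Dll1 at 2.82 and Heyl at 2.00 lie in the thin upper tail, with 7 and 41 clusters beyond them, and the 6 black lines lie within the bulk of the distribution.

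Start-site sequence from RefSeq (build GRCm38.p6, 250 bases before to 50 after a start) was matched by symbol for 7 of the 10 genes, with 2 starts each for Dll1 and Hes6, and not for Hes1, Hey1 and Heyl. The windows were searched on both strands for TGGGAA, the core letters Rbpj binds, for CACGNG and its form CACGCG, which Hes and Hey proteins bind, and for CANNTG, the E-box bound by Myod1 and Myog. TGGGAA was in 0 of the 9 windows, against 25.6% of all 32851 windows. CACGCG was in 4 of the 9 (Dll1, Jag1, Jag2 and Notch2), against 9.27% of all windows, and CACGNG, which includes it, was in 7 of the 9, against 27.5%. CANNTG was in 5 of the 9, against 72.3%, and overlapped no CACGNG match. The shares of all windows are not matched to the 9 in base composition, and no difference from them was tested. The sites with CACGCG are shown first because all 3 ligand genes hold them, although Dll1 alone of these rose. Positions count bases before the start, letters run 5′ to 3′ on the gene's strand, and capitals mark the match.
Dll1 (chr17:15376986-15377009, minus strand, 68 bases before): aatgacagcCACGCGaacgacaca
Jag1 (chr2:137116747-137116770, minus strand, 249 bases before): cCGCGTGttgagaagaggtggcca
Jag1 (chr2:137116677-137116700, minus strand, 171 bases before): ccaggcgggCACGCGtcattgtgt
Jag2 (chr12:112929463-112929486, minus strand, position 19 after the start): cgatgcgggCACGCGgctggggac
Notch2 (chr3:98013487-98013510, plus strand, 42 bases before): gcggaaggaCACGCGggccgccca

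The E-box matches at the upstream starts of Dll1 and Hes6, which both rose, are shown as examples. The other start of each gene also held a match, which is not shown. Notch3, which also rose, had no CANNTG match in its window, and Jag1, which did not pass, had 1. A match of letters is a description of the window and not a measured binding site. Action of Myod1 or Myog on these genes was not tested.
Dll1 (chr17:15377147-15377170, minus strand, 229 bases before): tctttcaaaCATGTGccggacatt
Dll1 (chr17:15377073-15377096, minus strand, 155 bases before): tgcagagagCAGGTGctgtctgca
Dll1 (chr17:15377050-15377073, minus strand, 132 bases before): attaccataCAGCTGagcgcacaa
Hes6 (chr1:91414244-91414267, minus strand, 220 bases before): cgcggccaaCACCTGtcgctcctg
Hes6 (chr1:91414195-91414218, minus strand, 171 bases before): aagcggctgCAGCTGccaactgtc
Hes6 (chr1:91414188-91414211, minus strand, 164 bases before): tgcagctgcCAACTGtcacgggca

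Around these 10 genes, 39 of 53 other listed pathway genes had a cluster of their own, and 10 of them rose and 2 fell. That is 25.6% higher and 5.13% lower, beside 8.64% and 7.52% of all clusters, with a median change of 0.28. The shares of all clusters are not matched to the 39 genes in intensity. With the clusters of below-median intensity left out, 27 of the 39 remained. All these shares belong to the fit with every array. Over all clusters, too, fewer were called whichever array was left out, so the counts that follow cannot be read against these shares. The number that rose was 6 without growth replicate 1, 9 without growth replicate 2, 6 without differentiation replicate 1 and 2 without differentiation replicate 2. Of the falls, that of Neurl1b alone was called whichever array was left out; without growth replicate 2, Dlk1 was called lower beside it (-1.18, adjusted p = 0.0187). With an offset of 1, 5 rose and 1 fell, the calls of Lfng, Psen2, Aph1c, Mib1, Kdm5a and Tle1 being lost. Against a minimum change of 1.5-fold, Dtx4 alone rose and Neurl1b alone fell.

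The other ligands and ligand-like genes did not pass with all 4 arrays. Dlk1, which encodes a Delta-like protein lacking the receptor-activating domain, had intensities of 110 and 103 on the differentiation arrays and 261 and 134 on the growth arrays. Its change was -0.73 ± 0.28 (adjusted p = 0.118), and the growth arrays were far apart. Its relative Dlk2 had a change of -0.44 ± 0.21 (adjusted p = 0.178) and the Delta family gene Dll3 of 0.21 ± 0.19 (adjusted p = 0.471). Dll4, the ligand known from endothelium, had a change of -0.19 ± 0.28, and none of 7 endothelial markers rose or fell.

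Genes that modify or cut the receptor went in different directions. Of 10 measured, 2 rose and 1 fell. Psen2, which encodes a catalytic subunit of gamma-secretase, had intensities of 408 and 545 on the differentiation arrays, against 213 and 215 on the growth arrays, and rose by 1.09 ± 0.20 (adjusted p = 0.0108). Aph1c, another gamma-secretase subunit, rose by 1.26 ± 0.24 (adjusted p = 0.0110) at lower intensities, 129 and 172 against 42.0 and 66.0. Mouse Aph1c has a near-identical copy, Aph1b, so its probes may not tell them apart. Lfng, the fringe glycosyltransferase that changes which ligands a Notch receptor answers to, had intensities of 327 and 377 on the differentiation arrays, against 576 and 571 on the growth arrays. Lfng fell by 0.69 ± 0.18 on the log2 scale (adjusted p = 0.0401), and lost its call when any of the 4 arrays was left out. The Psen2 call was lost without differentiation replicate 2, and that of Aph1c without each array other than growth replicate 2.

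The largest rise and the largest fall among the 39 genes were those of ubiquitin ligase genes. Of 11 genes for ubiquitin ligases, endocytosis and turnover, 4 rose and 1 fell, with a median change of 0.56. Dtx4, of the Deltex ligases that act on the receptor, had intensities of 2587 and 2671 on the differentiation arrays, against 656 and 645 on the growth arrays, and rose by 1.99 ± 0.18 (adjusted p = 0.000352). Mib2 (1.29 ± 0.19) and Mib1 (0.78 ± 0.20), the mind bomb ligases that drive ligand endocytosis, rose as well (adjusted p = 0.00368 and 0.0349). The neuralized ligases, which also act on ligands, moved in opposite directions. Neurl1a had intensities of 371 and 472 on the differentiation arrays, against 179 and 175 on the growth arrays, and rose by 1.17 ± 0.19 (adjusted p = 0.00672). Neurl1b had intensities of 41.1 and 41.4 on the differentiation arrays, against 186 and 163 on the growth arrays, and fell by 1.73 ± 0.18 on the log2 scale (adjusted p = 0.000772). Dtx4 and Neurl1b passed whichever array was left out, while Mib2 and Neurl1a lost theirs without differentiation replicate 2. Mib1, like Aph1c, passed only when growth replicate 2 was the array left out.

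**Figure D4:**
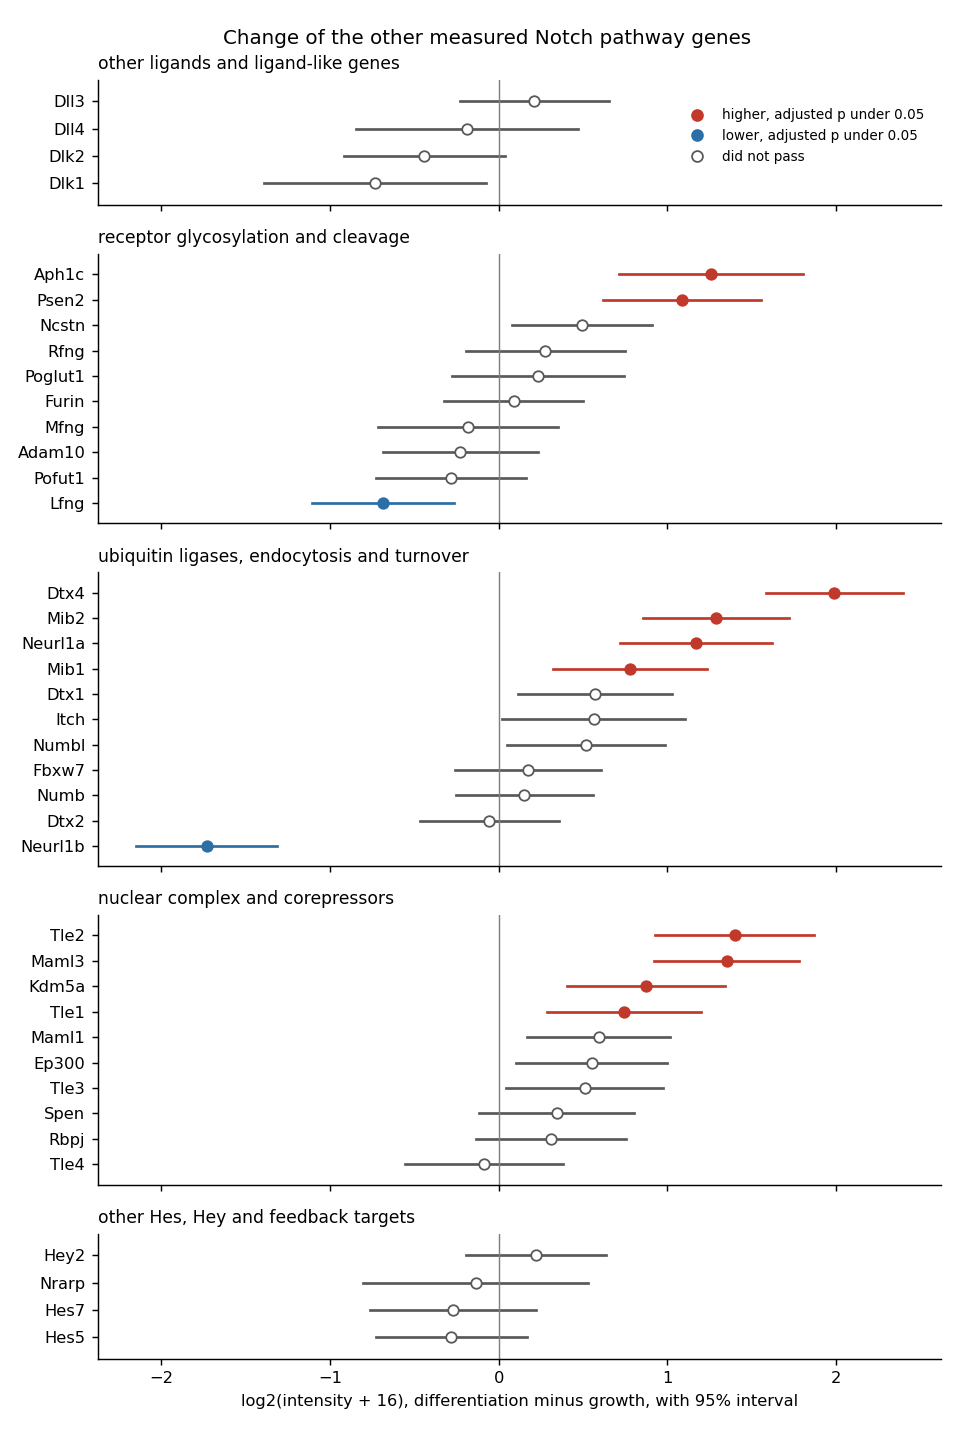
Change of the 39 other measured pathway genes (horizontal axis, differentiation minus growth in log2(intensity + 16)) with 95% intervals from limma, by list. Red points (10 genes) rose, blue points (Lfng and Neurl1b) fell and open points did not pass; no ligand-like gene and no further Hes or Hey gene is filled.

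Of 10 genes of the nuclear complex and its corepressors, 4 rose and none fell, with a median change of 0.57. Maml3, a Mastermind coactivator, had intensities of 436 and 442 on the differentiation arrays, against 148 and 178 on the growth arrays, and rose by 1.35 ± 0.19 (adjusted p = 0.00281). Maml1, its relative, had a change of 0.59 ± 0.18 and missed the threshold (adjusted p = 0.0643). Tle2 (1.40 ± 0.20) and Tle1 (0.74 ± 0.20), Groucho corepressors that Hes proteins recruit, rose, as did Kdm5a (0.87 ± 0.20), a histone demethylase gene linked to repression of Notch targets (adjusted p = 0.00366, 0.0397 and 0.0245). Rbpj itself was dim, at 52.2 and 58.2 on the differentiation arrays and 35.8 and 47.5 on the growth arrays, with a change of 0.31 ± 0.19. Of the calls in this list, only that of Maml3 held with every array left out in turn. Tle2 lost its call without differentiation replicate 2, Kdm5a without each array other than growth replicate 2, and Tle1 without any of the 4.

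The further Hes and Hey family and feedback genes did not pass, 0 of 4 in either direction. Hes5, a Notch target best known in neural progenitors, had intensities of 230 and 284 on the differentiation arrays and 330 and 298 on the growth arrays, with a change of -0.28 ± 0.19 (adjusted p = 0.341). Hes7, of the somite clock, had a change of -0.27 ± 0.21 (adjusted p = 0.403) and Hey2 of 0.22 ± 0.18 (adjusted p = 0.422). The feedback inhibitor gene Nrarp had a change of -0.14 ± 0.29. Among the 8 Hes, Hey and feedback genes measured in all, Heyl and Hes6 were thus the ones past the threshold.

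Markers of other cell types were examined because Notch genes are used by many of them. Fibroblast markers rose in 2 of 6 cases (Dcn and Col3a1), and their summed intensity was 9872 to 10861 on the differentiation arrays against 5068 to 5411 on the growth arrays. Leukocyte markers fell in 2 of 5 cases, with sums of 257 to 260 on the differentiation arrays and 387 to 474 on the growth arrays, and adipocyte markers in 1 of 5. Of the endothelial markers and of 3 neuronal and glial markers, none passed, with endothelial sums of 453 to 489 on the differentiation arrays and 394 to 546 on the growth arrays. No marker was listed at 0 on all arrays, and without a detection call dim values cannot be told from background. The part of these markers in the changes of the Notch genes was not tested.

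Over the 4 arrays, the genes nearest in pattern to those that rose were found by the Euclidean distance between log2(intensity + 16) values centred on each gene's mean. Nearest to Dll1 were Hsd11b1 (distance 0.19), Htra3 (0.28) and Rgs2 (0.30), and to Heyl the genes Best1 (0.094), Adamts4 (0.10) and P2rx6 (0.11). Nearest to Notch3 were Gfra1 (0.073), Ackr4 (0.077) and Syne1 (0.079), and to Hes6 the clone-named A830019P07Rik (0.072), Mme (0.086) and Col4a5 (0.086). All 12 rose, with changes close to that of the gene they are near (2.57 to 2.93 for those near Dll1). Their rise and its size follow from the choice by distance and are not a separate result. The measure rests on 4 arrays in 2 groups and was not tested.

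**Figure D5:**
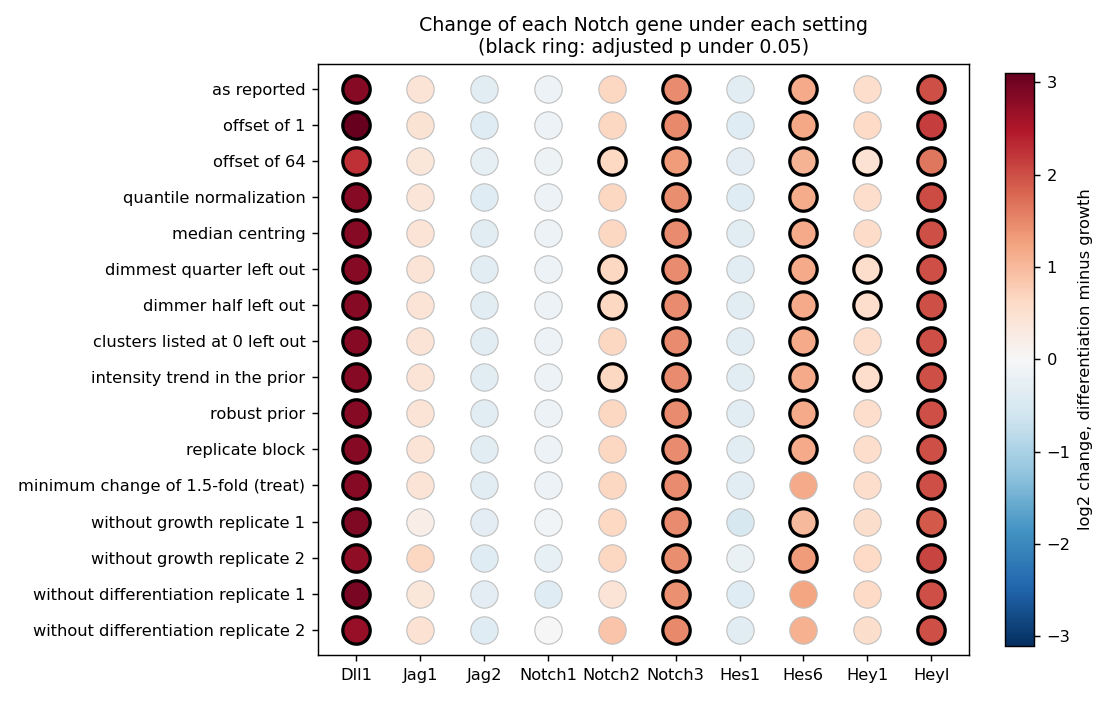
Change of each of the 10 genes (columns) under the reported analysis and 15 alternative settings (lines down the page), coloured by the change in log2 units, differentiation minus growth; a black ring marks an adjusted p under 0.05. Dll1, Notch3 and Heyl carry the ring in every line, Hes6 in 12 of the 15 alternatives, Notch2 and Hey1 in 4 each, and the other genes in none.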

How the data were processed

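The values deposited by the authors are linear intensities, 1 for each transcript cluster on each array, made with PLIER and mouse build mm9 per the submitters' processing notes. The PLIER version, background correction and any normalization between arrays are not stated there. Groups and replicate numbers came from the sample titles. Of 16658 clusters, 14938 carried 1 gene symbol in the platform annotation, 989 several and 731 none; 14883 Entrez identifiers matched a RefSeq table (GRCm38.p6), which changed no symbol. A cluster naming Jag2 together with Pgp was not used for Jag2.

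Intensities were transformed as log2(value + 16), and the groups were tested over all clusters in R 4.3.3 (limma 3.58.1, two-sided, eBayes, no block), adjusted by Benjamini-Hochberg over all clusters at 0.05. For listed genes with several clusters the brightest was used. The procedure was run on simulated data whose spread came from the variance model of limma itself. That run cannot show how well the model holds for these arrays. The text names all 10 genes, pathway genes past the threshold or nearest to it, 3 genes nearest in pattern and label checks. Marker genes past the threshold and Tnnt2, Dll4, Nrarp and Rbpj were named after their values were seen. Ccnb1, a planned label check, had no cluster of its own. The 10 genes and the lists were chosen with earlier results of these data known. Alternatives were other offsets (1 and 64), normalizations, filters on dim clusters, variance priors, a replicate block, a minimum change and leaving out each array; the array left alone in a group was taken to vary as the other group does.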

Additional observations from a re-analysis of the deposited data

How the results depend on the processing

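Of 150 values of the 10 genes under alternative settings, 138 kept their direction and side of the threshold, 8 newly passed (Notch2 and Hey1), 3 lost their call (Hes6), and 1 reversed: Notch1 ranged from -0.37 to 0.0076 when an array was left out. Dll1, Notch3 and Heyl passed in all 15 settings. The 4 genes that rose were 3 to 4 when an array was left out, none fell, and all clusters called (2691 as reported) then ranged from 751 to 2028. Other pathway genes that rose (10 as reported) then ranged from 2 to 9 and those that fell (2 as reported) from 1 to 2. With an offset of 1 the pathway counts were 5 higher and 1 lower, with 1150 clusters called in all. With an intensity trend in the prior 16 pathway genes rose and 4362 clusters were called, and against a minimum change of 1.5-fold 1 rose, 1 fell and 559 were called. With the clusters of below-median intensity left out, 14 of the 27 pathway genes that remained rose and 1 (Lfng) fell. Neurl1b was removed by the filter itself. Of the 8329 clusters then left, 3614 were called in either direction, and the share called higher was not computed. The filter used the mean of all 4 arrays, so a gene could pass it through 1 group alone. The titles share replicate numbers, but same-numbered arrays did not deviate together (correlation -0.037), and with the replicate block 1 pathway gene fell, Lfng being the call lost, while the block changed no call among the 10 genes. The cause of the other shifts in these counts was not tested. The values hold no detection call, so signal over background cannot be judged.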

Other observations

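A further transcript cluster is annotated with both Pgp, a phosphatase gene, and Jag2, and was therefore not counted for either gene. Its intensity was 529 and 708 on the differentiation arrays and 749 and 812 on the growth arrays, with a change of -0.34 ± 0.21 SE (limma adjusted p = 0.283). The groups did not overlap, and the cluster that carries Jag2 alone had a change of -0.35.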
